A study of Caenorhabditis elegans with 23 samples.

Results

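Germline-depleted glp-1 worms were compared with wild-type worms on day 8 of life, with both genotypes fed RNAi against ash-2. The mutants carried glp-1(e2141ts), a temperature-sensitive allele of the gene for a Notch receptor, and the worms they were set against were wild type (WT, strain N2). Each group holds 3 arrays, so the comparison uses 6 of the 23 arrays of the series and all 22548 probe sets on them. Both groups received the bacterial ash-2 RNAi, so neither is an unperturbed control. Matching glp-1 and WT worms on the empty vector (EV; 3 and 2 arrays on day 8, since the submitters left out 1 WT array for quality) and matching worms under ash-2 RNAi at the L3 larval stage (3 arrays each) are used where a difference is compared. RNA came from lysates of whole worms grown at 20 degrees. A restrictive temperature for the mutant is not stated in the labels, which do say that it forms few germ cells. Whether replicate arrays stem from separate cultures is not stated, so p-values measure only the spread between these samples, which may be technical.

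The GLP-1 receptor, activated by a signal from the somatic distal tip cell, keeps germline stem cells dividing in Caenorhabditis elegans, and worms that lose it early have few germ cells while the body forms normally. Adults without a proliferating germline are known for long life, stored fat and activity of the transcription factors DAF-16/FOXO in the intestine. The protein ASH-2 belongs to the methyltransferase complex that marks lysine 4 of histone H3 (H3K4).

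Values are log2 intensities per probe set as deposited, listed in replicate order, and differences are glp-1 minus WT on the log2 scale. The words rise and fall are used only of probe sets for which limma's adjusted p over all 22548 is under 0.05. Errors after ± are limma's standard errors, with n = 3 against 3 unless stated. Affymetrix marks probe sets that may pick up more than 1 transcript with an _s_at or _x_at ending, and genes read on them are given as shared and are uncertain. The 3 arrays of glp-1 worms were less alike (SD of the difference between arrays 0.356 to 0.427) than the 3 of WT (0.212 to 0.248), and glp-1 array 3 was the least like its group. In bulk RNA from whole worms, fewer cells of a type and less RNA per cell cannot be told apart.

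The RNAi target and the mutated gene were read first. Probe set 175434 of ash-2 had log2 intensities of 4.94, 4.94 and 4.90 in glp-1 worms, against 5.14, 4.93 and 5.14 in WT, a difference of −0.14 ± 0.14 that did not pass (adjusted p = 0.425). The other ash-2 probe sets (171772, 172463 and 172493, all shared) reached 13.44 to 14.90 in glp-1 worms, against 11.04 to 13.57 in WT. Their differences were 1.92, 1.88 and 1.54, all past the threshold. They hold the highest values of the glp-1 arrays (14.74, 14.88 and 14.90), where the scanner may saturate. These shared probe sets lay at 6.10 to 7.11 in glp-1 worms on EV and at 6.65 to 8.78 in WT on EV, below every array under ash-2 RNAi. What they read under RNAi was not tested, and the sources do not say which of them the RNAi clone covers. On EV, probe set 175434 had 5.58, 5.29 and 5.12 in glp-1 worms, against 7.07 and 6.71 in WT, and within each genotype all arrays under ash-2 RNAi lay below all arrays on EV. The drop under RNAi was smaller in glp-1 worms (means of 4.92 under RNAi and 5.33 on EV) than in WT (5.07 and 6.89), a difference of 1.42 ± 0.21 between them by limma (adjusted p = 0.00499). Both means under RNAi were near the medians of those arrays (4.89 to 4.97). The glp-1 mean on EV was not far above the medians of its arrays (4.97 to 5.01). This left glp-1 worms little room for a drop, so the test does not compare the strength of the knockdown. The glp-1 transcript (shared) had log2 intensities of 6.29, 6.31 and 5.70 in glp-1 worms, against 9.46, 9.48 and 9.86 in WT, with no overlap and a difference of −3.51 ± 0.29 (adjusted p = 7.91e-07). A point mutation need not change the transcript's level, so this value does not check the genotype.

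Differences between the genotypes reached more of the arrays' probe sets than not. Of 22548 probe sets, 12084 (53.6%) passed, of which 6349 (28.2%) were higher and 5735 (25.4%) lower in glp-1 worms. They name 9407 genes. A change of at least 2-fold was seen for 3989 (17.7%) upwards and 3894 (17.3%) downwards, and one of at least 8-fold for 529 upwards and 1039 downwards. All glp-1 arrays lay above all WT arrays for 7697 probe sets (34.1%) and below them for 6471 (28.7%). With so many probe sets moving, the zero point of the scale decides the direction of small differences. Setting the arrays equal on muscle and neuron genes instead of keeping the deposited scale moved the median of all probe sets by −0.955. It left 2957 of 19669 passing probe sets higher (15%, against 52.5% as deposited). The directions below are those of the deposited scale, and lists whose direction depends on it are pointed out where they are described.

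Markers of germ cells and oocytes were lower in glp-1 worms and markers of somatic tissues mostly higher. All 8 germ cell markers fell, with a median difference of −4.54 (range −6.54 to −2.37), and their mean log2 intensity was 4.96 to 5.14 in the glp-1 arrays, against 9.53 to 9.97 in the WT arrays. All 10 markers of oocytes and embryos fell too (median −6.45, means of 5.35 to 5.98 in glp-1 worms, against 11.76 to 11.96 in WT). Markers of intestine (5 of 6), body wall muscle (6 of 6), somatic gonad sheath (4 of 4), hypodermis and cuticle (5 of 6) and neurons (5 of 8) rose on the deposited scale, with medians of 2.36, 2.13, 1.54, 0.85 and 0.79. Their means ran, from lowest to highest array, from 9.37 to 9.72 for intestine in glp-1 worms, against 7.08 to 7.17 in WT, and from 9.63 to 9.68 for muscle in glp-1 worms, against 7.63 to 7.80 in WT. Sperm markers did not fall on the deposited scale, with 14 of 35 rising and none falling (median 0.54, less than the shift of −0.955), and means of 5.54 to 5.88 in glp-1 worms, against 4.83 to 5.22 in WT. These markers move along with many of the gene groups below, and their part in those results was not tested.

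The largest falls included transcripts of oocytes and early embryos. The gene spn-4, which encodes an RNA-binding protein of the early embryo, had log2 intensities of 4.83, 4.81 and 5.61 in glp-1 worms, against 12.76, 12.86 and 12.83 in WT. The difference of −7.73 ± 0.21 (95% interval −8.20 to −7.27, adjusted p = 1.52e-10) makes WT 213-fold higher. Eggshell genes were close behind. For cbd-1 (shared), a chitin-binding protein of the eggshell, values were 4.44, 4.61 and 5.54 in glp-1 worms, against 12.088, 11.996 and 12.216 in WT, a log2 difference of −7.24 ± 0.24. The other genes of the 15 largest falls were plk-3, F18A1.7, cyb-2.2, rbm-3.1, clec-88, trcs-1, F14H3.6, egg-1, mesp-1, cyb-2.1, ima-2, puf-11 and cpg-2. They include 2 B-type cyclins, a polo-like kinase, an importin alpha (ima-2), a Pumilio-family RNA-binding protein (puf-11), an egg surface receptor for sperm entry (egg-1) and an eggshell proteoglycan (cpg-2). Their log2 differences ran from −7.73 to −7.06 (largest adjusted p = 3.58e-08). Over these 15 genes the glp-1 arrays lay between 3.82 and 7.69 and the WT arrays between 11.33 and 13.58. Of the 15 probe sets, 9 are shared. For 10 of them the glp-1 mean was under the median of the glp-1 arrays (4.97), so the sizes of these falls are limited by the dim end of the scale.

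**Figure D1:**
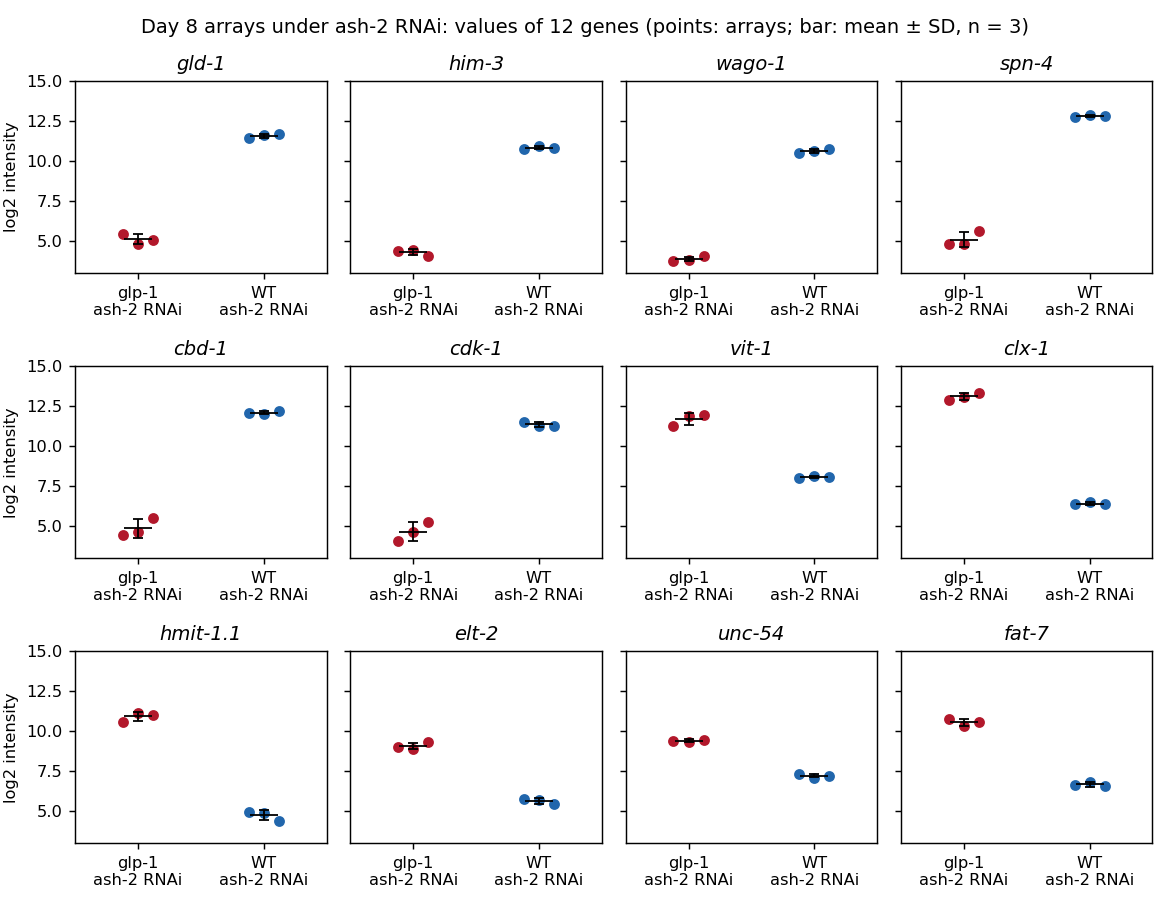
Log2 intensity (y axis) of 12 genes in the 3 glp-1 arrays (left, red) and the 3 WT arrays (right, blue) under ash-2 RNAi on day 8, with points for arrays and bars for mean ± SD. In every panel the groups lie apart, with glp-1 worms lower for gld-1, him-3, wago-1, spn-4, cbd-1 and cdk-1, and higher for vit-1, clx-1, hmit-1.1, elt-2, unc-54 and fat-7.

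Regulators of germline stem cells and of the switch to meiosis were lower in glp-1 worms. Of 27 measured genes of this list, which includes the Notch pathway, 22 fell, none rose and 5 did not pass, with a median log2 difference of −2.87 (all genes, read on the brightest probe set, had a median of 0.07, with 28.7% rising and 25% falling). The translational repressor gene gld-1, which promotes entry into meiosis, had log2 intensities of 5.45, 4.84 and 5.08 in glp-1 worms, against 11.44, 11.60 and 11.70 in WT (−6.46 ± 0.16). The RNA-binding protein genes daz-1 (−6.28) and nos-2 (−5.61, shared) followed. Targets and partners of the receptor fell less, among them the PUF genes fbf-1 (−3.43) and fbf-2 (−2.87), lst-1 (−3.81, shared), a gene activated by GLP-1, and lag-1 (−2.23), the DNA-binding factor of the Notch pathway. The ligand gene apx-1 fell by 2.83, while that of the distal tip cell ligand, lag-2, lay at 0.07 without passing. Values of sygl-1 (−0.22), gld-2 (−0.11) and fog-3 (−0.37) did not pass either.

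Meiosis and P granule genes fell almost without exception. In the meiosis list 37 of 39 genes fell (median −3.80), among them the chromosome axis genes him-3 (shared) and htp-1 and the synaptonemal complex genes syp-1 and syp-3 (shared). Log2 intensities of him-3 were 4.38, 4.42 and 4.09 in glp-1 worms, against 10.75, 10.96 and 10.79 in WT, a difference of −6.54 ± 0.15. For htp-1 they were 3.99, 3.99 and 3.96 in glp-1 worms, against 10.26, 10.18 and 10.10 in WT (−6.20 ± 0.09). No array of either genotype came near the other group. Of 37 genes for P granules, the RNA and protein bodies of germ cells, and for germline small RNAs, 36 fell (median −3.06). The Argonaute wago-1 had log2 intensities of 3.75, 3.85 and 4.04 in glp-1 worms, against 10.48, 10.61 and 10.74 in WT (−6.73 ± 0.17). Other Argonautes fell by 3.73 (prg-1, shared), 3.67 (csr-1) and 4.20 (hrde-1), and the P granule components glh-1 (shared), pgl-1 (shared), pgl-3 and deps-1 by 4.27, 4.49, 4.59 and 5.89. Within pgl-1, glp-1 array 3 (6.68) lay above arrays 1 and 2 (5.16 and 5.55) and still far below WT (9.94 to 10.88).

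Oocyte, eggshell and early embryo genes formed the list with the lowest median. Of 54 genes, 43 fell and 5 rose, with a median of −4.88, and their mean log2 intensity was 5.74 to 6.24 in the glp-1 arrays, against 9.74 to 9.82 in the WT arrays. The yolk receptor gene rme-2 had 5.43, 5.3 and 6.22 in glp-1 worms, against 11.743, 11.844 and 12.196 in WT, a log2 difference of −6.28 ± 0.28. Both oocyte maturation genes were lower, oma-1 by 6.41 (shared) and oma-2 by 5.2 (shared). For oma-2 the glp-1 arrays stayed at 7.27, 7.13 and 7.26, against 12.37, 12.46 and 12.44 in WT. Embryonic polarity and fate genes such as mex-6 (−6.74 and −6.53 on its 2 probe sets) and pos-1 (−6.56, shared) fell as well. The 5 genes of the list that rose were sdz-27 (2.70), skn-1 (1.17), perm-4 (0.70), par-1 (0.60) and perm-2 (0.38), of which all but sdz-27 are on shared probe sets. With muscle and neuron centring only 1 of the 54 genes rose, and the rises of par-1, perm-4 and perm-2 are smaller than the shift of −0.955. Zygotic endoderm genes end-1 (0.01), end-3 (−0.25) and med-1 (0.14) did not pass.

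**Figure D2:**
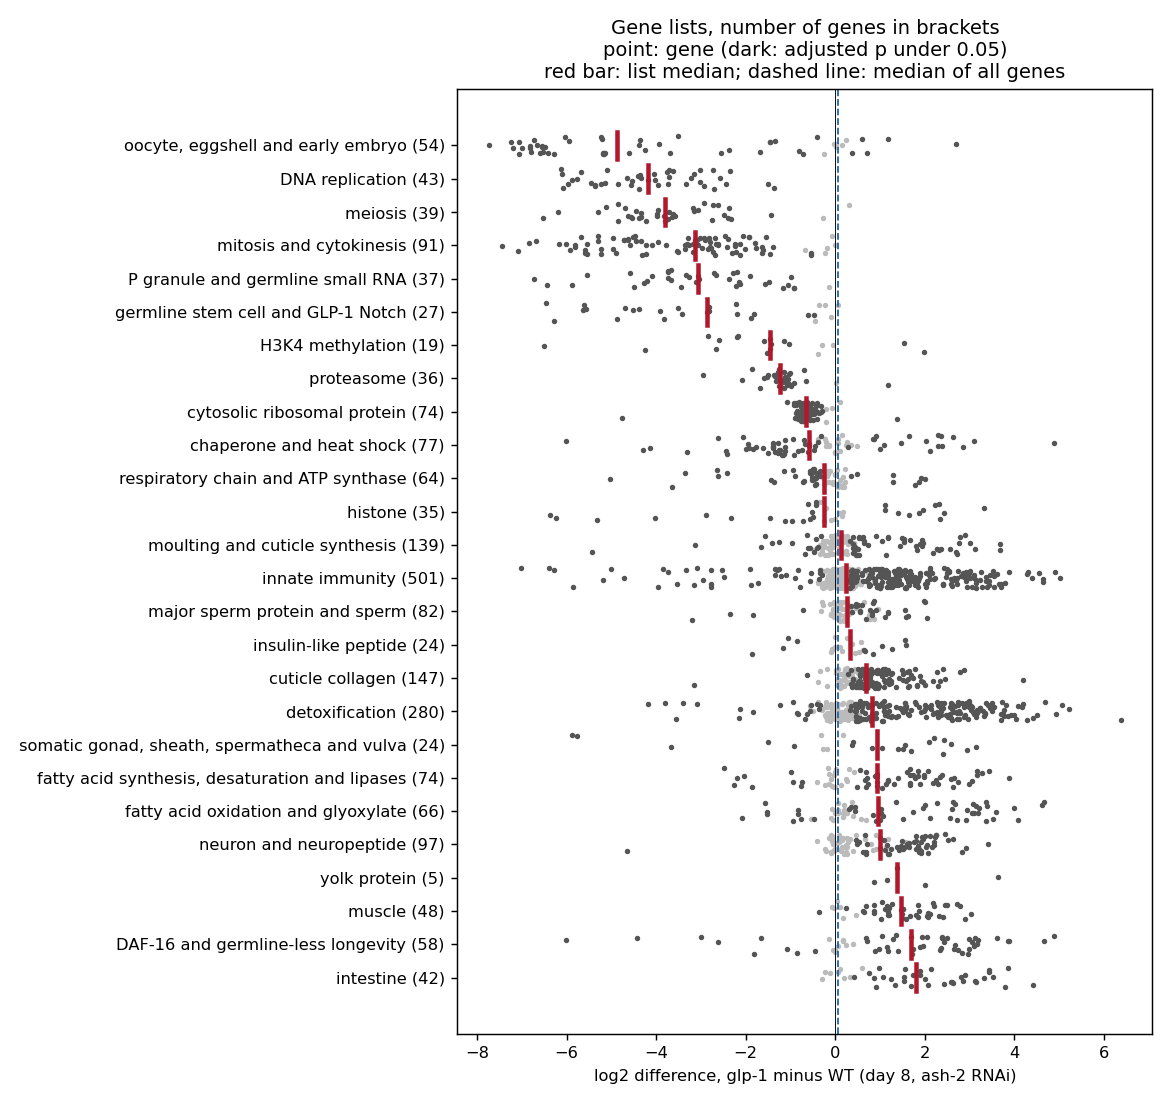
Log2 difference, glp-1 minus WT (x axis), of every measured gene of the 26 lists, with a row per list, dark points for genes past the threshold, a red bar at the list median and a dashed line at the median of all genes. Cell division, oocyte and other germline lists, sperm excepted, lie far to the left, and the lists for intestine, DAF-16 targets, muscle and yolk lie to the right on the deposited scale; the direction of several right-hand lists depends on that scale.

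Cell division genes fell with the germline. All 43 DNA replication genes fell (median −4.19), among them all 6 subunits of the MCM helicase (median −5.41), and in mitosis and cytokinesis 86 of 91 genes fell and none rose (median −3.14). The cyclin-dependent kinase gene cdk-1 had log2 intensities of 4.09, 4.62 and 5.29 in glp-1 worms, against 11.50, 11.27 and 11.29 in WT, a difference of −6.69 ± 0.24. The sliding clamp gene pcn-1 (shared) had 5.90, 5.70 and 6.35 in glp-1 worms, against 12.13, 12.11 and 12.04 in WT (−6.11 ± 0.16). Kinase genes of the spindle, plk-1 (−6.85, shared) and air-1 (−6.16, shared), fell as far. Nuclear pore genes followed, with 23 of 26 falling and none rising (median −2.24). Somatic cells of adult worms are known not to divide, and the part of germ cell number in these falls was not tested.

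Sperm genes did not follow the other germline lists. Of 82 sperm and major sperm protein genes, 24 rose (29.3%), 4 fell (4.88%) and 54 did not pass, with a median of 0.25. Among all genes 28.7% rose and 25% fell, so only the share falling stood apart. With muscle and neuron centring the median became −0.70 (5 rising, 55 falling). The major sperm protein genes, which encode the cytoskeletal protein of crawling sperm, lay between 0.11 and 1.97. Of these 23 genes 10 rose and none fell on the deposited scale, and all 23 are read on shared probe sets of near-identical copies. The paternal factor gene spe-11 had log2 intensities of 5.76, 5.87 and 5.44 in glp-1 worms, against 3.87, 3.43 and 3.65 in WT (2.04 ± 0.21, adjusted p = 5.87e-06). Those intensities are low in both genotypes. The transcription factor gene of spermatogenesis, spe-44, went the other way, with 3.86, 3.53 and 3.99 in glp-1 worms, against 7.02, 6.92 and 7.04 in WT (−3.20 ± 0.12). The mean of the sperm list was 5.23 to 5.38 in the glp-1 arrays, against 4.86 to 5.05 in the WT arrays.

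Histone genes moved both ways. Of 35 measured, 11 rose (31.4%, against 28.7% of all genes) and 16 fell (45.7%, against 25%), with a median of −0.25. Among the 8 linker histone genes 5 fell, such as hil-4 (−6.38) and hil-5 (−6.25), and hil-1 rose by 3.31 ± 0.22, with log2 intensities of 10.74, 10.67 and 10.39 in glp-1 worms, against 7.37, 7.39 and 7.10 in WT. The variant histone genes htz-1, the H2A.Z gene (−4.02, shared), and his-74, an H3.3 gene (−5.33, shared), fell. Of 25 genes named his, 10 rose and 9 fell (median 0.08), and the rises included his-37 (11.55, 11.58 and 11.46 in glp-1 worms, against 9.11, 9.12 and 9.09 in WT; 2.42 ± 0.12) and his-4 (2.32, shared). Core histone genes have near-identical copies, and 18 of these 25 are on shared probe sets.

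H3K4 methylation genes were mostly lower. Of 19, 14 fell, 2 rose and 3 did not pass, with a median of −1.47. The methyltransferase gene set-2 had log2 intensities of 5.46, 5.83 and 5.46 in glp-1 worms, against 8.71, 8.33 and 8.26 in WT (−2.85 ± 0.16). Subunit genes of its complex fell by 2.65 (cfp-1), 2.18 (wdr-5.1) and 1.04 (dpy-30), and the demethylase genes by 2.2 (rbr-2, shared), 2.59 (lsd-1) and 1.45 (spr-5, shared). The WDR5 paralogue wdr-5.3 fell most, with 3.87, 4.03 and 4.45 in glp-1 worms, against 10.53, 10.60 and 10.77 in WT (−6.52 ± 0.17), and wdr-5.2 (−0.29, adjusted p = 0.0550) did not pass. The genes that rose were set-30 (1.98 ± 0.11) and ash-2 itself on its brightest, shared probe set. That probe set was far higher under ash-2 RNAi than on EV in both genotypes, and probe set 175434 of ash-2 did not pass (−0.14). The other values without a call were amx-1 (−0.40) and jmjd-3.1 (−0.05, shared). The list counts jmjd-3.1, although its product is a demethylase of another site of histone H3. Without glp-1 array 3 both wdr-5.2 (−0.35, adjusted p = 0.0363) and amx-1 (−0.52, adjusted p = 0.0225) passed in limma's test.

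Most genes of the cytosolic ribosome and of the proteasome were lower in glp-1 worms. Of 74 ribosomal protein genes of the cytosol, 69 fell and 1 rose, with a median of −0.66 and a mean log2 intensity of 12.49 to 12.63 in the glp-1 arrays, against 13.18 to 13.23 in the WT arrays. Of 36 proteasome genes, 34 fell (median −1.23), 30 of them at least 2-fold. The 1 list member that rose was skn-1, a transcription factor that controls proteasome genes, and with muscle and neuron centring none rose. The subunit gene rpt-3 had log2 intensities of 10.48, 10.38 and 10.40 in glp-1 worms, against 12.118, 12.052 and 12.104 in WT (−1.67 ± 0.09). Of 77 chaperone genes 43 fell and 18 rose (median −0.58). The chaperonin genes (7 of 8 falling, median −1.21) and the J-domain genes (20 of 29 falling and 3 rising, median −1.11) fell, whereas 6 of 9 genes of the hsp-12, hsp-16 and hsp-17 small heat shock proteins rose and none fell (median 2.3).

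Paralogues within these machines moved in opposite directions. The ribosomal gene rpl-11.1 (shared) had log2 intensities of 8.73, 8.56 and 8.74 in glp-1 worms, against 13.50, 13.37 and 13.43 in WT (−4.76 ± 0.16). Its paralogue rpl-11.2 (shared) had 12.86, 12.81 and 12.61 in glp-1 worms, against 11.553, 11.411 and 11.198 in WT (1.37 ± 0.16). The same held in the respiratory chain and ATP synthase, where 30 of 64 genes fell and 8 rose (median −0.25). The ATP synthase subunit gene asb-1 (shared) fell by 3.64 and asb-2 rose by 2.01, and asg-1 fell by 0.95 while asg-2 rose by 1.78. In complex III, ucr-2.3 fell by 5.04, whereas ucr-2.1 rose by 1.29 and ucr-2.2 (shared) by 1.91. The small heat shock genes sip-1 and hsp-12.3 form another such contrast. Values of sip-1 (shared) were 7.71, 8.33 and 9.63 in glp-1 worms, against 14.54, 14.55 and 14.61 in WT (−6.01 ± 0.36), and those of hsp-12.3 were 10.53, 10.48 and 10.21 in glp-1 worms, against 5.48, 5.3 and 5.76 in WT (4.89 ± 0.16). These genes were picked after their values were seen.

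The largest rises were genes of metabolism and transport and genes of unassigned function. The highest among probe sets assigned to 1 named gene was clx-1 (a probe set without an assigned gene reached 6.765), with log2 intensities of 12.90, 13.10 and 13.32 in glp-1 worms, against 6.37, 6.5 and 6.38 in WT, a difference of 6.69 ± 0.14 (95% interval 6.39 to 6.99, adjusted p = 4.59e-11, 103-fold). The short-chain dehydrogenase genes dhs-26 (6.38) and dhs-2 (5.22), the proton-coupled inositol transporter gene hmit-1.1 (6.17), the glucuronosyltransferase gene ugt-41 (5.07) and the aspartyl protease gene asp-14 (5.02, shared) were also among the 15 largest. For hmit-1.1 the arrays had 10.60, 11.16 and 11.04 in glp-1 worms, against 4.99, 4.89 and 4.41 in WT. The remaining names are C30G12.2, Y47H9C.1, H20E11.3, C46F2.1, T10B5.8, Y17D7B.7, T20G5.8, K04H8.3 and H20E11.2, for which no role is given here. Their differences ran down to 4.97 (largest adjusted p = 6.51e-08), and only 2 of the 15 are on shared probe sets. None of these rises depends on the scale, since each exceeds the shift of −0.955 by far.

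Yolk and intestine genes were higher in glp-1 worms. All 5 yolk protein genes rose, from 0.87 (vit-6, shared) to 3.64 (vit-1), with a median of 1.38. Log2 intensities of vit-1 were 11.28, 11.89 and 11.96 in glp-1 worms, against 7.99, 8.12 and 8.10 in WT (3.64 ± 0.28, 12.4-fold). For vit-2 they were 12.81, 13.06 and 13.33 in glp-1 worms, against 10.79, 11.19 and 11.24 in WT (1.99 ± 0.25). With muscle and neuron centring the yolk median was 0.42 and 2 of the 5 still passed, with vit-6 at −0.08. Of 42 intestine genes 34 rose and none fell (median 1.81), and with that centring 26 rose and 8 fell (median 0.85). The intestinal GATA factor gene elt-2 had 9.02, 8.90 and 9.30 in glp-1 worms, against 5.78, 5.71 and 5.44 in WT (3.43 ± 0.16, 10.8-fold). Other members were the proton pump gene vha-6 (3.42, shared), the transporter gene pgp-3 (4.40), the lysosomal protease gene asp-3 (2.85) and elt-7 (2.82), which encodes another intestinal GATA factor.

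Many genes of fat synthesis and of fat breakdown were higher on the deposited scale. Of 74 genes for fatty acid synthesis, desaturation and lipases 47 rose and 9 fell (median 0.94), and of 66 for fatty acid oxidation and the glyoxylate cycle 39 rose and 9 fell (median 0.95). Both medians came to −0.02 and −0.01 with muscle and neuron centring, so only single genes well above the shift have a direction that does not depend on the scale. The desaturases are such a family, since all 7 measured rose (median 2.35, lowest 1.66). The oleate-forming desaturase gene fat-7 had log2 intensities of 10.77, 10.34 and 10.61 in glp-1 worms, against 6.63, 6.86 and 6.57 in WT (3.89 ± 0.14, 14.8-fold). Differences of fat-6 (2.35, shared), fat-5 (2.65) and fat-3 (2.99), and of the elongase genes elo-5 (3.16, shared) and elo-6 (3.28, shared), were of like size. On the breakdown side all 5 peroxisomal acyl-CoA oxidase genes rose (2.71 to 4.61), with acox-1.2 at 8.57, 8.82 and 8.69 in glp-1 worms, against 4.17, 4.05 and 4.02 in WT (4.61 ± 0.24). The peroxisomal thiolase gene daf-22 (shared) rose by 3.14, hacd-1 by 4.07 and cpt-5 by 4.66. The glyoxylate cycle gene icl-1 (shared) and the gluconeogenesis gene pck-1 (shared) rose by 3.05 and 3.18.

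Targets and partners of DAF-16 and genes tied to the long life of germline-less worms were mostly higher. Of 58 such genes 40 rose and 9 fell (median 1.69), and with muscle and neuron centring 32 rose and 17 fell (median 0.74). The superoxide dismutase gene sod-3 had log2 intensities of 9.45, 9.30 and 8.23 in glp-1 worms, against 5.92, 6.02 and 6.10 in WT (2.98 ± 0.32), with glp-1 array 3 the lowest of its group. The metallothionein gene mtl-1 had 10.30, 10.53 and 11.02 in glp-1 worms, against 6.71, 6.90 and 6.70 in WT (3.85 ± 0.17). Regulators of the germline longevity pathway rose as well, namely the steroid receptor gene daf-12 (2.98), nhr-80 (2.74, shared) and hlh-30 (2.66, shared). The gene for DAF-16 itself rose by 0.88 (shared), less than the shift of the scale. Genes of the insulin pathway upstream were lower, with the phosphatase gene daf-18 at 6.52, 6.38 and 6.57 in glp-1 worms, against 10.95, 10.85 and 10.93 in WT (−4.42 ± 0.16), and age-1 (−2.62, shared), pdk-1 (−1.66, shared) and akt-1 (−1.08, shared) below 0. In contrast akt-2 and sgk-1 rose by 2.06 and 2.36.

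Some detoxification and immune genes were higher, with list counts that depend on the scale. Of 280 detoxification genes 171 rose and 19 fell (median 0.82), which became 109 and 115 (median −0.14) with muscle and neuron centring. The cytochrome P450 gene cyp-35B1 had log2 intensities of 11.15, 10.83 and 10.72 in glp-1 worms, against 5.78, 5.82 and 6.29 in WT (4.94 ± 0.17). Other P450 genes with rises above 4 were cyp-25A1 (4.67), cyp-35C1 (4.51, shared) and cyp-34A9 (4.28), whereas cyp-31A2 (shared), whose product acts in eggshell formation, fell by 4.18. In the glucuronosyltransferase family 46 of 64 genes rose and 2 fell (median 1.2). Of 501 innate immunity genes 201 rose, 38 fell and 262 did not pass (median 0.25), and with that centring 107 rose and 304 fell (median −0.71). Single members moved far: the saposin-like gene spp-12 had 13.42, 13.82 and 13.73 in glp-1 worms, against 9.15, 8.93 and 8.97 in WT (4.64 ± 0.48), and the infection response gene irg-5 had 12.996, 13.123 and 13.528 in glp-1 worms, against 9.28, 8.88 and 8.63 in WT (4.28 ± 0.22). Of 220 C-type lectin genes 76 rose and 5 fell as deposited (median 0.19, less than the shift of the scale), with clec-88 (−7.35) among the falls.

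Muscle, neuron and cuticle genes were higher on the deposited scale. Of 48 muscle genes 41 rose and 1 fell (median 1.47), and of 97 neuron and neuropeptide genes 55 rose and 1 fell (median 0.99). With muscle and neuron centring, which sets these genes level by construction, the counts were 25 and 7 for muscle and 34 and 36 for neurons. The muscle myosin gene unc-54 (shared) had log2 intensities of 9.43, 9.30 and 9.48 in glp-1 worms, against 7.31, 7.12 and 7.23 in WT (2.19 ± 0.17). The syntaxin gene unc-64 (shared) rose by 2.51 and the neuropeptide genes flp-2 and flp-10 by 3.41 and 2.91. The neuron list's fall was tdc-1, which encodes tyrosine decarboxylase and is expressed in the gonadal sheath as well as in neurons, at 4.45, 4.97 and 5.54 in glp-1 worms, against 9.21, 9.61 and 10.11 in WT (−4.66 ± 0.35). Of 147 cuticle collagen genes 102 rose and 2 fell (median 0.69), and these became 27 and 50 with muscle and neuron centring. Among 24 genes of the somatic gonad and vulva 15 rose and 5 fell (median 0.93), becoming 11 and 11 with that centring. The rises included the sheath innexin genes inx-8 (2.09) and inx-9 (1.52). Their partners in the germ cells, inx-14 (shared) and inx-22, fell by 5.77 and 5.88, and lin-3, the EGF-like ligand gene, by 3.68.

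**Figure D3:**
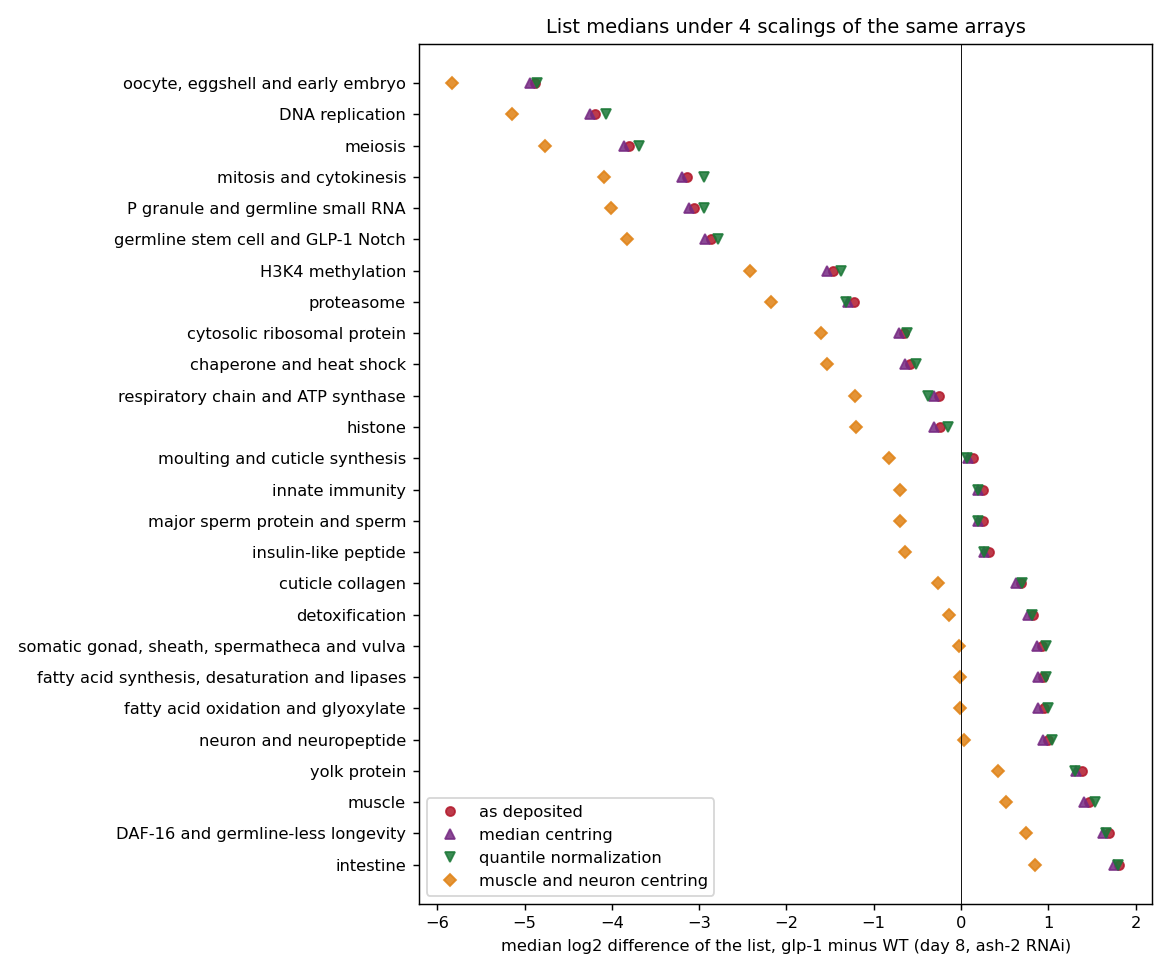
Median log2 difference, glp-1 minus WT (x axis), of each of the 26 lists under 4 scalings of the same 6 arrays. Medians as deposited, with median centring and with quantile normalization nearly coincide, whereas centring on muscle and neuron genes moves every list to the left, so that lists such as detoxification (0.82 as deposited, −0.14 with that centring) change sign while the intestine list and the germline lists other than sperm (0.25 as deposited, −0.70 with that centring) do not.

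The genotype difference under ash-2 RNAi was then set against that under empty vector, which uses no array in common. It addresses whether the response of glp-1 worms and of WT worms to ash-2 RNAi differs. Most of the genotype difference was present under both treatments, and a few stress, lipid and detoxification genes differed widely between them. Under EV 12371 probe sets (54.9%) passed, 6376 (28.3%) higher and 5995 (26.6%) lower in glp-1 worms. Of the probe sets that passed under ash-2 RNAi, 87.1% also passed in the same direction under EV (85% of those that passed under EV), and 11 and 10 passed in opposite directions. The differences correlated across probe sets with r = 0.958, a description of probe sets that share one normalization and are not replicates. All 15 largest falls and all 15 largest rises passed in the same direction under EV, the falls at −8.91 to −7.26 and the rises at 0.74 to 6.02.

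A direct test of the difference between the genotype differences (ash-2 RNAi minus EV, n = 3 against 3 and 3 against 2) found 902 of 22548 probe sets (4%), 377 (1.67%) higher and 525 (2.33%) lower. Of the 902, 749 also passed in the comparison of the genotypes under ash-2 RNAi. The largest class, 380, was higher in glp-1 worms with a rise lower under ash-2 RNAi than under EV, and 192 were higher with a larger rise. This count depends on single arrays, being 385 without WT EV array 2, 451, 410 and 550 without WT ash-2 RNAi arrays 1, 2 and 3, and at most 960 without any other. The split depends on the scale, since with muscle and neuron centring 665 of 847 were higher (78.5%, against 41.8% as deposited). It also turned to mostly higher without WT EV array 1, a fit that leaves 1 array in that group.

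Genes above in this test were led by fmo-2, a flavin-containing monooxygenase. Its log2 intensities were 5.36, 4.68 and 5.01 in glp-1 worms under ash-2 RNAi, against 4.92, 4.99 and 5.25 in WT, where the groups overlap (−0.04 ± 0.19, adjusted p = 0.887). Under EV they were 4.56, 5.11 and 4.68 in glp-1 worms, against 9.66 and 9.66 in WT (−4.88). The WT worms on EV alone were high, and the difference between the 2 comparisons was 4.84 ± 0.28 (adjusted p = 2.30e-05). For T22F3.11 the pattern was the same, with 3.91 to 4.23 in glp-1 worms under ash-2 RNAi, against 4.22 to 4.57 in WT, and 3.81 to 4.25 in glp-1 worms on EV, against 8.20 and 8.36 in WT (3.98 ± 0.22).

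Another pattern was a rise seen under ash-2 RNAi and hardly under EV. The gene K04H8.3 had log2 intensities of 9.17, 9.33 and 9.19 in glp-1 worms under ash-2 RNAi, against 4.16, 4.33 and 4.27 in WT, a difference of 4.98 ± 0.13. Under EV it had 4.55, 4.78 and 5.00 in glp-1 worms, against 3.94 and 4.13 in WT (0.74). The test of the difference gave 4.24 ± 0.19 (adjusted p = 4.41e-06). Similar values were found for try-9 (3.56 under ash-2 RNAi and 0.66 under EV), B0507.3 (3.22 and 0.45) and the infection response gene irg-4 (4.56 and 1.09). In these genes the glp-1 worms under ash-2 RNAi stood above the other 3 groups of day 8. The small heat shock gene hsp-12.6 differed in the same way (3.09 under ash-2 RNAi and 0.66 under EV, adjusted p = 0.0156), with glp-1 array 3 (7.94) below arrays 1 and 2 (9.18 and 9.01).

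The genes farthest below in the test passed as higher under EV and did not pass under ash-2 RNAi. The claudin-like gene clc-24 had log2 intensities of 5.04, 5.17 and 4.32 in glp-1 worms under ash-2 RNAi, against 4.38, 4.37 and 4.35 in WT (0.48 ± 0.21, not past the threshold, but 0.74 and past it without glp-1 array 3). Under EV it had 8.26, 8.79 and 8.80 in glp-1 worms, against 4.74 and 4.56 in WT (3.96), and the test gave −3.48 ± 0.32 (adjusted p = 4.91e-04). The neuropeptide-like gene nlp-25 (0.16 under ash-2 RNAi and 3.26 under EV), the glucuronosyltransferase gene ugt-9 (0.42 and 3.51) and R07C12.1, K08D10.14, F57H12.6 and F18E3.11 behaved alike. Without glp-1 array 3 the ugt-9 difference under ash-2 RNAi also passed (0.87), and without WT EV array 2 the test of R07C12.1 missed the threshold (−3.43, adjusted p = 0.0511). Here the glp-1 worms on EV stood apart from the other 3 groups, and the values under ash-2 RNAi turn negative with muscle and neuron centring, where nlp-25, F18E3.11, F57H12.6 and ugt-9 passed as lower in limma's test (largest adjusted p = 0.0465).

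Several lists had shares above that of all genes in this test (298 of 17138 higher, 1.74%, and 444 lower, 2.59%). Among them were the detoxification, lipid, longevity and intestine lists. On the higher side alone they included the histone (22.9%), DNA replication (11.6%) and oocyte (7.41%) lists. On the lower side alone they included the muscle (6.25%) and cuticle collagen (4.08%) lists. Of 280 detoxification genes 39 were lower and 10 higher, and the glucuronosyltransferases gave 14 lower of 64 and none higher, with medians of 1.2 under ash-2 RNAi and 2.44 under EV. These counts became 21 and 11 with muscle and neuron centring and 21 and 4 without WT EV array 2. Among 74 genes of fatty acid synthesis and lipases 10 were lower and 7 higher, among 58 DAF-16 and longevity genes 7 and 5, and among 42 intestine genes 7 and 1. Without WT EV array 2 these became 9 and 3, 4 and 0, and 1 and 0 (all genes, 208 and 110), so the longevity and intestine counts depend on that array, and with muscle and neuron centring 4 and 8, 3 and 5, and 1 and 2. In lipid metabolism the desaturase genes fat-7 (3.89 under ash-2 RNAi and 5.45 under EV, adjusted p = 0.00275) and fat-5 (2.65 and 4.31, adjusted p = 7.06e-04) rose less under ash-2 RNAi. The elongase genes elo-5 (3.16 and 1.56, adjusted p = 0.00204) and elo-6 (3.28 and 2.28, adjusted p = 0.0222), and hacd-1 (4.07 and 1.72, adjusted p = 4.13e-04) rose more. Insulin-like ins-7 had 8.21, 8.28 and 7.78 in glp-1 worms under ash-2 RNAi, against 6.67, 6.72 and 6.16 in WT (1.58), and 3.47 under EV (adjusted p = 0.00342). Of 35 histone genes 8 were higher in the test and none lower, with 12 and 0 under muscle and neuron centring and 5 and 0 without WT EV array 2. In the germline and division lists, no gene of 39 passed for meiosis, 1 of 37 for P granules (lower), 4 of 54 for oocytes (all higher), 5 of 43 for DNA replication (all higher) and 3 of 27 for the stem cell list (2 higher and 1 lower). Without WT EV array 1 or array 2 the replication count was 1 or 2 and the stem cell count 0 or 1. The genes gld-1 (−6.46 under ash-2 RNAi and −7.60 under EV, adjusted p = 0.0294) and oma-2 (−5.2 and −6.96, adjusted p = 7.19e-04) fell less under ash-2 RNAi. No member of the yolk list passed.

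**Figure D4:**
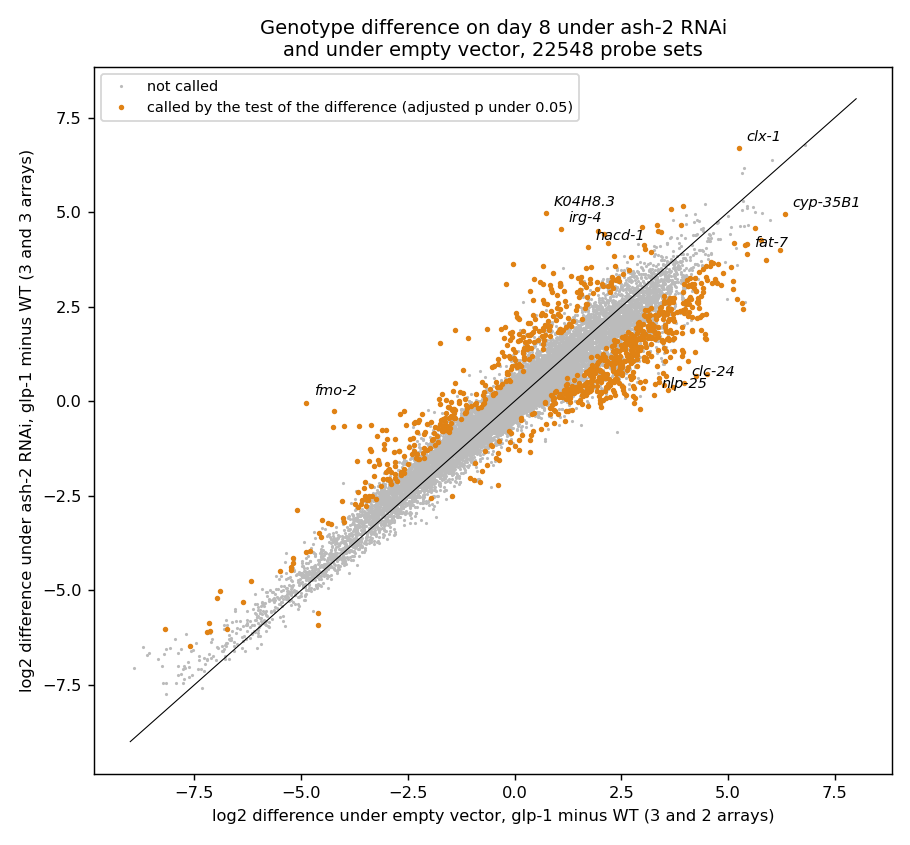
Log2 difference glp-1 minus WT on day 8 under ash-2 RNAi (y axis, 3 and 3 arrays) against that under empty vector (x axis, 3 and 2 arrays) for each of 22548 probe sets, with orange points for those that passed the test of the difference and a line of equality. Most probe sets lie along the line, with fmo-2 far above it at −0.04 under ash-2 RNAi and −4.88 under EV, and clc-24 and nlp-25 below it.

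Set against worms labelled L3 under the same RNAi, the day 8 difference held more changes of at least 2-fold, with 3989 rises and 3894 falls on day 8. The L3 arrays of WT worms had high means for the eggshell gene cpg-2 (11.30, shared) and the major sperm protein gene msp-31 (13.93, shared). The L3 stage is taken from the labels and was not tested. At L3, 11023 probe sets (48.9%) passed between the genotypes, 6338 (28.1%) higher and 4685 (20.8%) lower in glp-1 worms. Changes of at least 2-fold were 277 rises (1.23%) and 1628 falls (7.22%). Of the probe sets that passed on day 8, 62.7% passed in the same direction at L3 (68.7% of those that passed at L3), and 192 higher and 324 lower on day 8 passed in the opposite direction. The 15 largest falls all passed as lower at L3 too, at −4.69 to −2.09. Their L3 glp-1 arrays were unlike each other, with array 1 below arrays 2 and 3 for each of these genes. Values were 5.16, 8.35 and 7.90 for spn-4 and 4.27, 9.77 and 9.36 for cpg-2. The L3 differences of such genes thus average unlike arrays. Of the 15 largest rises 12 passed as higher at L3, at 0.16 to 1.63 over all 15. Array medians were 4.89 to 4.97 in these groups on day 8 and 5.80 to 5.91 at L3, an offset that cancels within each genotype difference. The interquartile range of an array was 3.33 to 3.56 in glp-1 worms, against 3.76 to 3.90 in WT, on day 8, and 3.46 to 3.58 in glp-1 worms, against 3.58 to 3.65 in WT, at L3. A difference in spread does not cancel, and its part in the calls between the ages was not tested.

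A test of the day 8 difference minus the L3 difference found 11216 probe sets (49.7%), 5469 (24.3%) higher and 5747 (25.5%) lower. With muscle and neuron centring 3185 of 14831 were higher (21.5%, against 48.8% as deposited), since the median of all probe sets moved by −0.505. The oocyte list had medians of −4.88 on day 8 and −1.42 at L3, DNA replication −4.19 and −1.3, and meiosis −3.80 and −2.06. The gene cav-1 (shared), a caveolin present in oocytes and embryos, led the lower side. Its log2 intensities on day 8 were 4.04, 4.58 and 5.14 in glp-1 worms, against 11.202, 11.379 and 11.217 in WT (−6.68), whereas the L3 difference was 0.59 and did not pass. Its L3 values were 4.36, 4.49 and 7.19 in glp-1 worms, of which array 3 alone lay above all WT arrays (4.34 to 5.41). The innexin gene inx-2 (−5.09 and 0.14, shared) likewise did not pass at L3. Its relative inx-3 (−5.34 and 0.44, shared) passed as higher at L3 in limma's test (adjusted p = 0.0310). On the higher side clx-1 (6.69 on day 8 and 0.16 at L3), dhs-26 (6.38 and 0.73) and hmit-1.1 (6.17 and 0.63) led.

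Some lists had different signs or counts at the ages. Sperm genes were lower at L3, where 64 of 82 fell (20.8% of all probe sets fell), and had a median of 0.25 on day 8 against −0.70 at L3. All 23 major sperm protein genes fell at L3 (median −0.60), and spe-11 gave 2.04 on day 8 and −1.45 at L3. Ribosomal protein genes fell on day 8 (69 of 74, median −0.66) and had a median of −0.08 at L3, with 2 falling. Of the 19 genes of the H3K4 methylation list 9 fell at L3 (median −0.14), against 14 on day 8. All 19 passed the test between the ages, 17 of them lower on day 8. Moulting genes had 49 of 139 rising and 16 falling on day 8, and 76 rising and 1 falling at L3, both on the deposited scale. With muscle and neuron centring the day 8 counts became 25 and 99, so their direction depends on the scale. L3 counts with that centring are not given here. The DAF-16 list had medians of 1.69 on day 8 and 0.29 at L3, and the intestine list 1.81 and 0.45. In this test 38 of the 58 DAF-16 genes and 33 of the 42 intestine genes were higher on day 8.

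**Figure D5:**
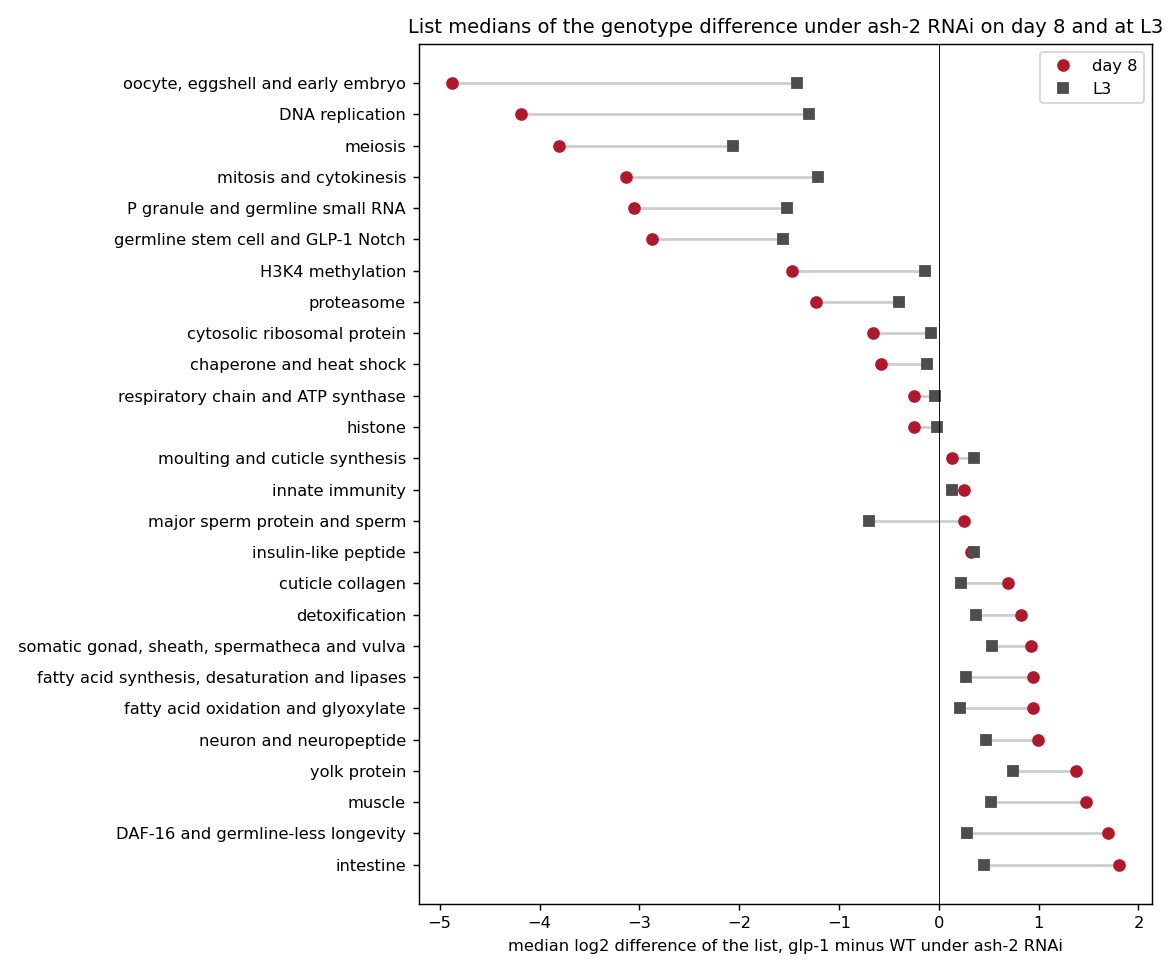
Median log2 difference, glp-1 minus WT under ash-2 RNAi (x axis), of each of the 26 lists on day 8 (red circles) and at L3 (dark squares). Day 8 medians lie farther from 0 for most lists, as for oocyte genes (−4.88 on day 8 and −1.42 at L3). On the deposited scale the sperm list lies on opposite sides of 0 at the ages (0.25 on day 8 and −0.70 at L3). Muscle and neuron centring makes the day 8 sperm median negative, and L3 medians with that centring are not given.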

How the data were processed

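Whole-worm RNA of 23 samples was hybridised to 1 array each. Per the submitters' processing notes, RMA produced the deposited log2 intensities per probe set. Its version and the chip definition used are not given in the sources. All 22548 probe sets were used, with 6 empty cells in 5 of them, which limma drops from that probe set's fit. Platform annotation names 1 gene for 20766 probe sets, several for 887 and none for 895; 20701 got a current symbol through the RefSeq gene table (WBcel235), and 6711 are shared. The number of arrays limits the precision.

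For the 11 day 8 arrays, limma 3.58.1 (R 4.3.3) estimated a mean per group, with empirical Bayes and two-sided tests; p-values were adjusted over every probe set by the Benjamini-Hochberg method, and contrasts between ages used all 23 arrays. Lists are described with the brightest probe set per gene and no set test. Genes are named by a rule: ash-2, glp-1, the 15 largest rises and falls without overlap, up to 4 smallest p per list, all yolk and H3K4 genes, and the 8 largest differences of each sign in the tests against EV and L3. Further genes shown, among them the paralogue pairs, were chosen after their values were seen. The comparison, its members and the lists were chosen with earlier results of these data known. Of 174 named probe sets 160 passed, and 2 of these, C23G10.11 and H04M03.3, were lost without some 1 array.

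As a check on simulated data, the fit was run with 50 probe sets each changed by log2 0.5, 1, 2 and 4 among 22544. For the comparison under ash-2 RNAi 13, 37, 48 and 49 were recovered with 6 false calls. For the test against EV 2, 22, 42 and 46 were recovered with 6 false calls. The simulation gave a probe set the same spread in every group, whereas the real glp-1 arrays were less alike than the WT arrays. It also changed far fewer probe sets than the 53.6% that passed in the data. These recovery counts therefore do not carry over to the data. Alternatives were other scalings, filters, limma settings, fits with replicate number as a block and leaving out each array.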

Additional observations from a re-analysis of the deposited data

Results flagged for a closer look

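Results stand here because the glp-1 minus WT difference under ash-2 RNAi differed, by a direct limma test with Benjamini-Hochberg adjustment, from that under EV (902 probe sets) or from that at L3 (11216 probe sets). Values are the log2 size of that difference between differences. Among the 174 named probe sets 44 passed the test against EV, 27 higher and 17 lower under ash-2 RNAi.

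Higher under ash-2 RNAi than under EV were fmo-2 (4.84), K04H8.3 (4.24), T22F3.11 (3.98), irg-4 (3.47), C23G10.11 (3.34), H04M03.3 (3.00), try-9 (2.90) and B0507.3 (2.78). So were lipid and longevity genes, namely hacd-1 (2.35), acox-1.2 (1.63), elo-6 (1.00) and dod-24 (0.76), and the collagen gene col-183 (2.01). Among the large rises the test gave clx-1 (1.43), T20G5.8 (1.41) and C46F2.1 (1.21). Genes with a smaller fall under ash-2 RNAi were clec-266 (1.88), oma-2 (1.76), rpl-11.1 (1.41), gld-1 (1.15), pcn-1 (1.1), T09B4.5 (1.02) and egg-3 (0.69). The 4 ash-2 probe sets gave 3.27, 3.27, 2.55 and 1.42, and saturation and the RNAi sequence limit what they show.

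Lower under ash-2 RNAi than under EV were R07C12.1 (−3.77), K08D10.14 (−3.59), clc-24 (−3.48), F57H12.6 (−3.33), F18E3.11 (−3.31), T16G1.6 (−3.14), nlp-25 (−3.1) and ugt-9 (−3.08). Others were ins-7 (−1.90), fat-7 (−1.56), hsp-17 (−1.41), cyp-35B1 (−1.39), ftn-1 (−1.25), mup-4 (−1.12), nos-2 (−1.0), pgp-11 (−0.91) and col-124 (−0.89).

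The day 8 difference lay farthest below the L3 difference for cav-1 (−7.27), C01G6.3 (−6.08), inx-3 (−5.78), clec-266 (−5.47), T09B4.5 (−5.26), inx-2 (−5.23), mex-6 (−5.19) and EEED8.3 (−5.14). It lay farthest above it for clx-1 (6.53), dhs-26 (5.65), hmit-1.1 (5.54), Y47H9C.1 (4.86), acox-1.2 (4.83), cyp-35B1 (4.82), K04H8.3 (4.79) and dhs-2 (4.75).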

How the results depend on the processing

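The comparison of glp-1 with WT worms kept between 10710 and 13014 passing probe sets under the alternatives run, except 9238 genes with probe sets averaged per gene and 3 larger moves. These were 19669 with muscle and neuron centring, 7481 of 15837 without shared probe sets, and 7746 with a minimum change of 1.5-fold. Leaving out an array gave 11167 to 11887. The test of ash-2 RNAi against EV gave 107 with that minimum and 385 to 960 with an array left out, and the test of day 8 against L3 gave 6219 with that minimum, 6887 without shared probe sets and 10620 to 11257 with an array left out. With shared probe sets left out fewer were tested; the other causes were not tested. Replicate number as a block gave 11912, 693 and 11242, and 12151 with the 6 arrays alone. Deviations of arrays with the same number correlated at 0.173, −0.0261 and 0.163, so the numbers are not shown to pair the arrays.

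Genotype differences that turned with muscle and neuron centring were R07C12.1 (−0.22), K08D10.14 (−0.29), clc-24 (−0.48), F57H12.6 (−0.58), F18E3.11 (−0.66), nlp-25 (−0.79), ugt-9 (−0.53) and vit-6 (−0.081). As deposited only vit-6 had passed. With that centring nlp-25, F18E3.11, F57H12.6 and ugt-9 passed as lower (adjusted p = 0.00436, 0.0278, 0.0422 and 0.0465). Values near 0 that turned with an array left out were F57H12.6 (range −0.053 to 0.74), T16G1.6 (−0.46 to 0.00085), nlp-25 (−0.010 to 0.39), fmo-2 (−0.21 to 0.13) and jmjd-3.1 (−0.20 to 0.095). None of these had passed. The mean of the 4 ash-2 probe sets was 1.3, against −0.14 for 175434.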

Other observations

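Further gene families were read in the day 8 comparison under ash-2 RNAi, as counts of genes with the brightest probe set. F-box genes of the fbxa family had 54 of 171 higher and 31 lower in glp-1 worms, near the shares over all genes (28.7% and 25%), and ran from −5.85 to 3.61, and fbxa-210 fell by 5.18. Saposin-like genes, which encode small membrane-active proteins, had 12 of 18 higher and 1 lower (median 1.24), and 13 of 15 aspartyl protease genes were higher (median 1.58). All 5 assembly genes of cytochrome c oxidase fell (median −2.42), among them cox-15 (−2.63, shared). Of 24 insulin-like peptide genes 7 rose and 4 fell, near those shares too, and 2 and 13 with muscle and neuron centring. The fall of ins-34 was seen in log2 intensities of 5.13, 4.88 and 5.26 in glp-1 worms, against 6.89, 6.99 and 6.99 in WT (−1.87 ± 0.23), and ins-7 and ins-17 rose by 1.58 and 1.26. Among moulting genes the patched-related gene ptr-2 (shared) fell by 5.42, whereas ptr-20 and the hedgehog-related gene wrt-5 (shared) rose by 2.75 and 2.69. Medians near or under the scale shift of −0.955 in size leave the direction of such families dependent on the scale.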
